A study of Mus musculus with 8 samples.

Results

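Lgals1 encodes galectin-1, a small lectin that binds beta-galactoside sugars, and it was followed across 8 pools of mouse kidney anlagen through its 1 matched probe. The probe, 811401, carries the transcript identifier NM_008495.1 in the files and was matched to Lgals1 by that accession, 1 probe of 33012 on the array and of 17594 tested. The gene was picked because its signal was higher in mutant than in control pools in these same arrays. Its values between genotypes are therefore described here without a test. The 4 mutant pools carried the genotype entry WT1_KO and came from mice with the Wt1 mutant allele of Kreidberg and colleagues. The 4 control pools are titled wild type but have the genotype entry WT1_heterozygote, so they are called controls and their genotype is not settled. All pools were of mixed C57Bl6/DBA background and were dissected at E10.25, with 8 to 13 tail somites, and each combined 16 kidneys of 1 genotype. The array names of mutant pools 1 and 4 share a number, so whether these are separate pools or 1 pool on 2 arrays is not settled, and the 4 mutant values may rest on 3 pools. The series asks which transcripts are deregulated in the kidney-forming region of Wt1 mutants at a time that the submitters place ahead of cell death.

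Wt1 is a zinc finger transcription factor of the metanephric mesenchyme, the embryonic tissue that condenses around the ureteric bud and gives rise to nephrons, and mice without it form no kidneys. Galectin-1 lacks a classical secretion signal, leaves the cell by an unconventional route and acts as a dimer. Outside the cell it bridges glycans on integrins, laminin, fibronectin and other glycoproteins, and it has been linked to cell adhesion, growth control and the survival of immune cells. It is widely made by mesenchymal and smooth muscle cells. The relation of galectin-1 to Wt1 in the kidney anlage is not addressed by any label of the series.

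Lgals1 was bright on every array and was higher in mutant pools, and most of the difference came from 2 of the 4 controls. The quantile-normalized log2 signal was 17.00, 16.87, 16.80 and 16.89 in mutant pools 1 to 4, against 15.26, 14.88, 16.54 and 16.60 in control pools 1 to 4. Control pools 1 and 2 thus lay far below the other 6 pools, while control pools 3 and 4 lay just under the lowest mutant pool. The mean was 16.89 ± 0.08 in mutants and 15.82 ± 0.88 in controls (log2 signal, SD, n = 4 pools each). The difference of the means was 1.07 (SE 0.38 from limma's linear model), a 2.10-fold higher signal in mutants. With mutant pools 1 and 4 averaged, the mutant mean was 16.87 ± 0.07 (SD, n = 3) and the difference 1.05. The groups did not overlap, with 0.20 log2 units between the lowest mutant and the highest control, about the width of the mutant range itself. The genotypes did not overlap, in either direction, at 10.6% of tested probes, and 0.728% were higher in mutants by at least as much as Lgals1. Nothing is read from these shares because the gene was chosen on the same contrast. Because each pool is a whole dissected region, a different number of cells that make Lgals1 and a different amount of Lgals1 RNA per cell cannot be told apart, in mutants or in controls.

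**Figure D1:**
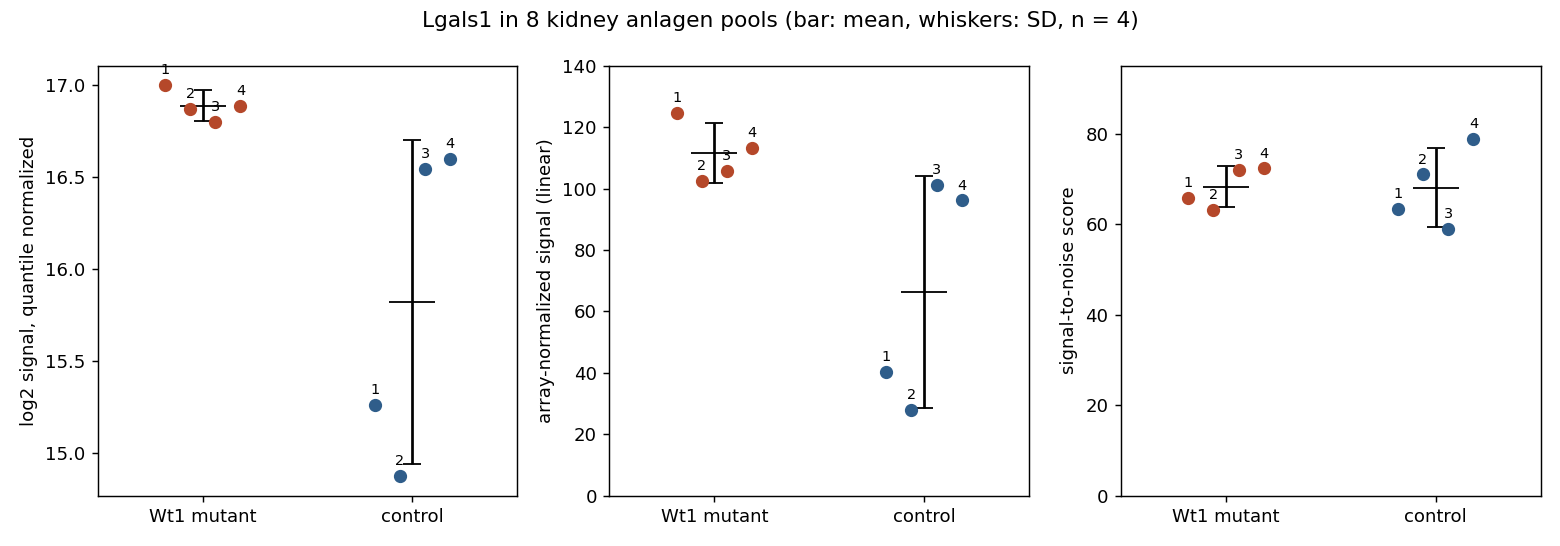
Lgals1 in each pool as the quantile-normalized log2 signal (left), the deposited array-normalized signal on a linear axis from 0 (middle) and the deposited signal-to-noise score (right), with mutants left of controls, pool numbers above the points, the mean as a bar and the SD as whiskers. In the first 2 panels control pools 1 and 2 sit far below all other pools, whereas the signal-to-noise scores of the 2 groups overlap.

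On the deposited scales the mean was higher in mutants, but the position of mutants against control pools 3 and 4 depended on the scaling. The deposited array-normalized signal, on a linear scale, was 124.5, 102.4, 105.7 and 113.2 in mutant pools 1 to 4, against 40.2, 27.9, 101.1 and 96.1 in control pools 1 to 4. On its log2 scale the lowest mutant lay 0.02 above the highest control. The unscaled signal was 91027, 114046, 91009 and 136683 in mutants, against 81309, 19438, 139421 and 97957 in controls. Before any scaling the groups therefore overlapped, with a difference of 0.65 on the log2 scale, and control pool 3 had the highest signal of all 8 pools. The unscaled log2 mean was 16.70 in mutants and 16.83 in control pools 3 and 4, a difference of -0.13. Control pool 1, low after scaling, was close to the mutants before it, on the array with the highest median signal of the 8 (2118). How far control pool 1 lay below the mutants thus depended on the scaling between arrays. It lay below all other pools but control pool 2 on each of these scales, and control pool 2 was lowest on each.

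The signal quality did not follow the signal. The signal-to-noise score of Lgals1 was 65.7, 63.1, 71.9 and 72.3 in mutant pools 1 to 4, against 63.4, 71.0, 59.0 and 78.8 in control pools 1 to 4. All scores were far above the minimum of 3 used for detection, and the quality flag was 0 on all 8 arrays. The signal lay between 0.583% and 4.16% of the brightest spot of its own array, so it was not near the top of the recorded range. The scores of control pools 1 and 2, where the signal was low, lay within the range of the other pools.

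The split among controls ran across the whole probe set and not through Lgals1 alone. The first principal component of the tested probes held 42.4% of the variance and placed these pools at 67.46 (pool 2) and 42.16 (pool 1), with the other 6 arrays between -21.50 and -13.08. Lgals1 was among the probes that followed this axis, with 1.34% of tested probes having a loading at least as large in size. Between 17358 and 19640 probes reached a signal-to-noise of 3 per array. None of the 16 listed markers of metanephric mesenchyme and nephron progenitors, Wt1 included, was matched to a probe, so neither the tissue nor the genotype labels were checked by them.

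The 4 controls were also set against the mutants in pairs. With array weights, which give less weight to the pools that stand apart, the difference over all pools was 0.52. Against control pools 1 and 2, with a mean log2 signal of 15.07, the mutant mean was 1.82 higher, a 3.53-fold difference, and 1.06% of tested probes were at least as far from 0 in that contrast. Against control pools 3 and 4, with a mean log2 signal of 16.57, the mutant mean was 0.32 higher, a 1.25-fold difference. In that contrast 24.7% of tested probes were at least as far from 0. Over the other scalings the difference against control pools 3 and 4 ran from 0.17 with the array-normalized signal to 0.25 with median scaling, and it was -0.13 without scaling. Against control pools 1 and 2 it was 1.42 without scaling. The sign against control pools 3 and 4 thus depended on scaling the arrays. Control pools 3 and 4 exceeded control pools 1 and 2 by 1.50 on the log2 scale, more than the difference between genotypes. For this gap within 1 group, 2.72% of tested probes were at least as far apart in either direction. Nothing is read from the shares in these contrasts either, because Lgals1 was chosen on values of these same pools.

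The mutant pools varied little. The SD of Lgals1 was 0.083 in mutants, against a median SD of 0.136 over tested probes in mutants. In controls it was 0.881, against a median of 0.287, and 4.38% of tested probes had a control SD at least as large. The array names carry 2 dates, and the date with 1 pool of each genotype holds mutant pool 1 and control pool 2. Within that date the difference was 2.12, from 1 pool each. Within the other date, with 3 pools of each genotype, it was 0.72. The low control pools 1 and 2 came from different dates. Only 1 control lies on the smaller date, and the part of the date and of other technical steps in these values was not tested.

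**Figure D2:**
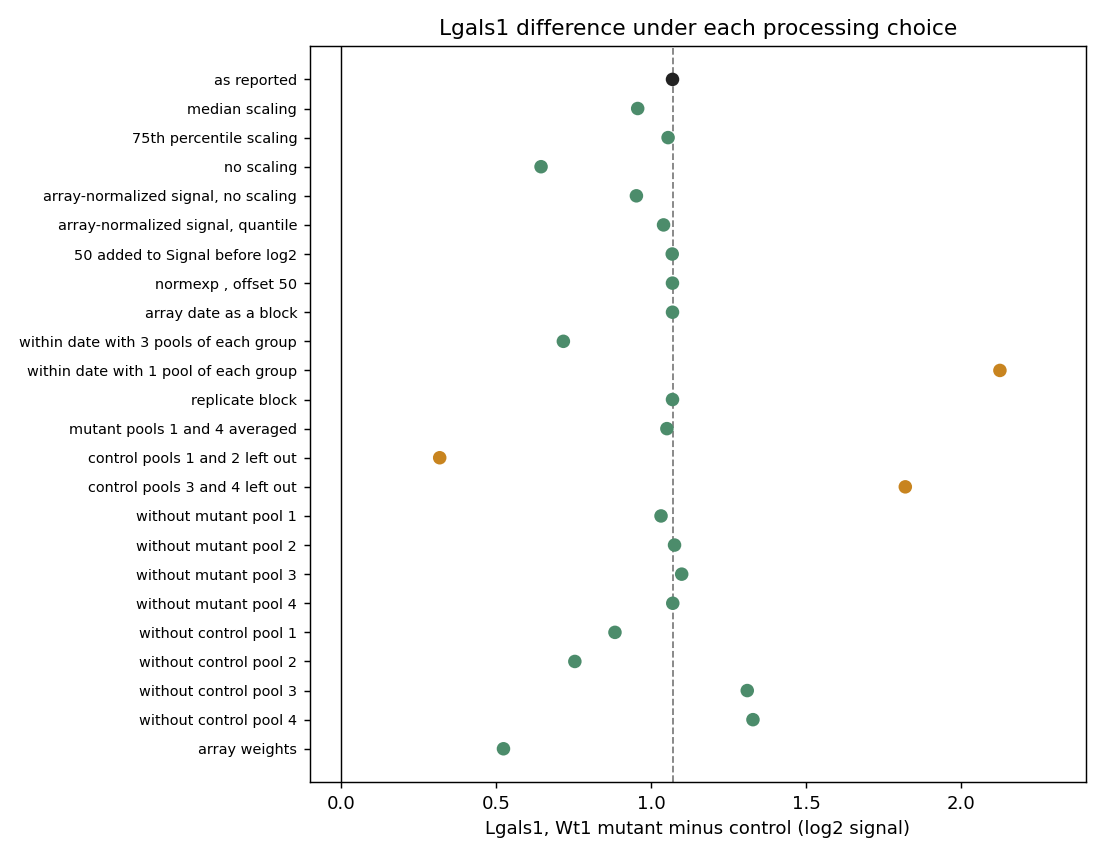
Lgals1 difference, mutant minus control on the log2 scale, as reported (black, dashed line at 1.07) and under 23 other processing choices (green where it moved by less than the pooled SD of 0.63, orange where it moved further). Each point is a difference of means, and the widest shifts follow the choice of control pools. All lie above 0, as those that reuse the reported pool values had to.

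Besides Lgals1, a single galectin could be tested, Lgals7, and its controls did not split as those of Lgals1 did. Of the 12 genes in the galectin list, 3 were matched to a probe, and apart from Lgals1 these were Lgals7 and Lgals2. Lgals7, galectin-7, a lectin best known from stratified epithelia, had a log2 signal of 13.78, 14.03, 13.99 and 13.88 in mutant pools 1 to 4, against 14.13, 14.18, 14.16 and 14.14 in control pools 1 to 4. All mutant pools lay below all control pools, without overlap as at 10.6% of tested probes. The difference was -0.23 (SE 0.10), and it did not pass limma's test over all probes (adjusted p = 0.366). For Lgals7 the controls were nearly identical, with an SD of 0.024, and control pools 1 and 2 did not stand apart. The difference was -0.23 against either pair of controls.

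Lgals2, galectin-2, did not reach the detection limit in any of the 8 pools, with signal-to-noise scores from -1.08 to 1.42, and was not tested. With Lgals7 as its only tested member besides Lgals1, the galectin list had 0 of 1 probes past limma's adjusted threshold and 1 of 1 at an unadjusted p under 0.05. Over all tested probes 0.460% passed the adjusted threshold and 13.5% the unadjusted one. None of the 29 listed surface and matrix partners of galectin-1, such as integrin beta-1, laminins and fibronectin, was matched to a probe. The same was true of the 22 glycan enzymes that build or mask its ligands, so the ligand side of galectin-1 is not analysed here.

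The Lgals1 gene lies in a stretch of the genome where several neighbours were also measured. Among the 10 protein-coding genes on each side of it in the RefSeq gene order of GRCm38.p6, 6 had a matched probe, 5 were tested and 4 were detected in at least 3 pools of both genotypes. Limma's test called 0 of these 4 at the adjusted threshold and 1 at an unadjusted p under 0.05, against 0.460% and 13.5% of all tested probes. Pdxp, which lies next to Lgals1 and encodes a phosphatase of pyridoxal phosphate and cofilin, ran the other way from Lgals1. Its log2 signal was 14.59, 14.34, 14.46 and 14.49 in mutant pools 1 to 4, against 15.07, 14.94, 14.76 and 14.61 in control pools 1 to 4. All mutants lay below all controls, without overlap as at 10.6% of tested probes, and the difference was -0.38 (SE 0.13, limma's adjusted p = 0.305). Control pools 1 and 2 were the highest of the 8 pools for Pdxp and the lowest for Lgals1.

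Nol12, a nucleolar RNA-processing protein and the neighbour on the other side, averaged 10.68 ± 0.23 in mutants and 10.58 ± 0.35 in controls (log2 signal, SD, n = 4 each), a difference of 0.11 (SE 0.19) with 0.797 as limma's adjusted p. Gga1, an adaptor for sorting at the Golgi, averaged 13.57 ± 0.10 in mutants and 13.50 ± 0.36 in controls, 0.07 apart (SE 0.18) with 0.852 as limma's adjusted p. The sign of both differences turned against control pools 3 and 4 alone, at -0.16 for Nol12 and -0.17 for Gga1, and without scaling between arrays, at -0.19 and -0.34. Cdc42ep1, an effector of the GTPase Cdc42, averaged 13.07 ± 0.15 in mutants and 13.33 ± 0.28 in controls, which differed by -0.26 (SE 0.16) with 0.435 as limma's adjusted p. The Cdc42ep1 difference was -0.03 against control pools 3 and 4 and -0.49 against control pools 1 and 2. Sh3bp1, a GTPase-activating protein for Rac, reached the detection limit in 1 mutant and 3 control pools. It was tested only through the controls, so no difference is given for it. None of the 4 neighbours detected in both genotypes passed the threshold.

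**Figure D3:**
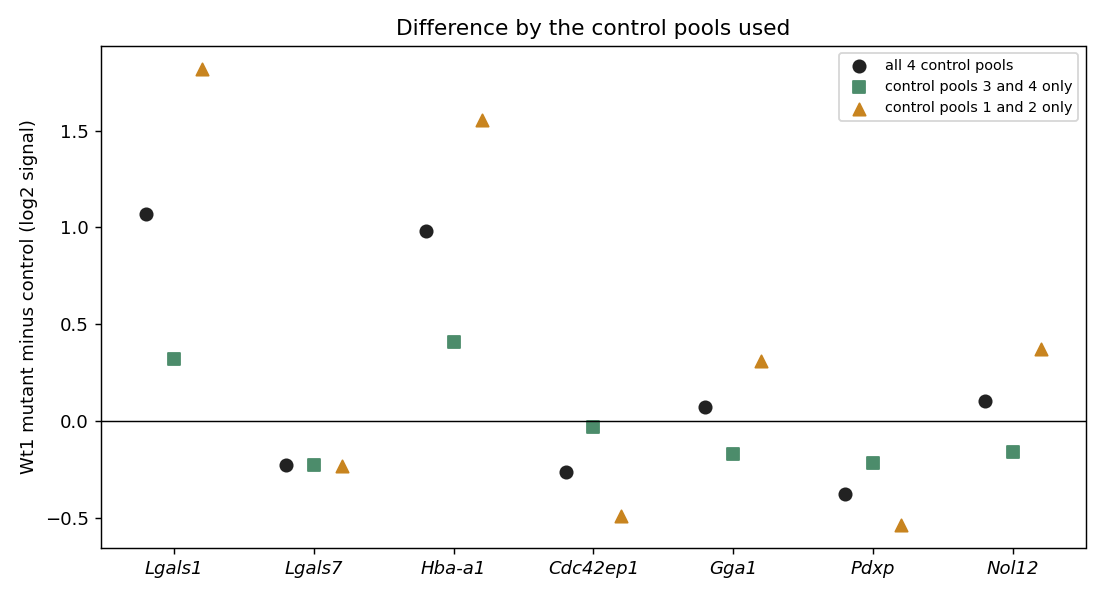
Difference between mutant and control pools on the log2 scale for Lgals1, Lgals7, Hba-a1 and 4 neighbours of Lgals1, computed with all 4 control pools (circles), with control pools 3 and 4 (squares) and with control pools 1 and 2 (triangles). Lgals1 and Hba-a1 lie above 0 with every set and highest with control pools 1 and 2, Lgals7 stays at -0.23, and Gga1 and Nol12 change sign with the controls used.

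The alpha globin Hba-a1, the oxygen carrier of red blood cells, was the 1 gene matched among 14 listed red cell genes, and its values ran alongside those of Lgals1 across the controls. Its log2 signal was 19.84, 20.00, 20.10 and 19.77 in mutant pools 1 to 4, against 18.08, 18.66, 19.40 and 19.64 in control pools 1 to 4. As for Lgals1, all mutants lay above all controls, without overlap as at 10.6% of tested probes, and control pools 1 and 2 were lowest, although pool 1 and not pool 2 was the lowest for Hba-a1. The difference was 0.98 (SE 0.32, limma's adjusted p = 0.279), 0.41 against control pools 3 and 4 and 1.56 against control pools 1 and 2. Hba-a1 has a near-identical copy, Hba-a2, whose RNA the probe may also bind. The part of blood content in the Lgals1 values was not tested. Of the 9 lists of cell type markers, the other 8 had 0 matched genes, and limma's test called 0 of 1 tested marker, with 1 at an unadjusted p under 0.05, against 0.460% and 13.5% of all tested probes.

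Among genes with a symbol, those whose profile was most like that of Lgals1 shared the low values in control pools 1 and 2. Picking genes for likeness to Lgals1 largely fixed this, so nothing is read from it. Likeness was the mean absolute difference between log2 profiles centred on their own mean over the 8 pools, taken against 17593 other tested probes, of which 176 had a symbol. All profiles come from the same arrays and share their scaling. The nearest was Pfdn5, a subunit of the prefoldin chaperone that assists the folding of actin and tubulin, at a distance of 0.105 log2 units. Pfdn5 had a log2 signal of 17.04, 17.06, 17.03 and 17.04 in mutant pools 1 to 4, against 15.60, 15.38, 16.82 and 16.94 in control pools 1 to 4. As with Lgals1, control pool 2 was the lowest and control pools 3 and 4 lay just under the mutants.

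The next 5 were H2bc13, a replication-dependent histone H2B (0.114), Atox1, a copper chaperone (0.166), Coa3, an assembly factor of cytochrome c oxidase (0.181), Crip1, a LIM domain protein (0.201), and B9d1, a protein of the ciliary transition zone (0.226). H2bc13 belongs to a family of near-identical histone genes, so its value is uncertain. The distance of Lgals1 from a flat profile was 0.642, and the median over the compared probes was 0.714. The likeness lay mostly in the split among controls. Against control pools 3 and 4 the mutant mean was higher by 0.32 for Lgals1 and 0.16 for Pfdn5. The other 5 ranged in that contrast from -0.19 for Crip1 to 0.05 for H2bc13, whereas against control pools 1 and 2 all 6 were higher in mutants, by 1.20 for B9d1 to 1.74 for H2bc13. In these 5 genes the mutant and control pools overlapped, whereas in Lgals1 and Pfdn5 they did not, as at 10.6% of tested probes. Nothing is read from this, because Pfdn5 was picked for its likeness to Lgals1.

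The named genes were a small part of the probes with such a profile. There were 19 tested probes without a symbol that lay nearer to Lgals1 than Pfdn5, and the nearest, mCG1042503.1, lay at 0.073. For B9d1, the last of the 6 named genes, 456 tested probes lay nearer. Of the 2 genes whose sign-turned profile ranked nearest to Lgals1, Sh3bp1 was below the detection limit in 3 mutant pools and control pool 4, so its rank is not read further. The other was Ube3a, a ubiquitin ligase, at a distance of 0.340. Ube3a had a log2 signal of 17.25, 17.10, 17.20 and 17.27 in mutant pools 1 to 4, against 17.78, 18.27, 17.24 and 17.28 in control pools 1 to 4. Control pools 1 and 2 were the highest for Ube3a, and control pools 3 and 4 lay among or next to the mutants.

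**Figure D4:**
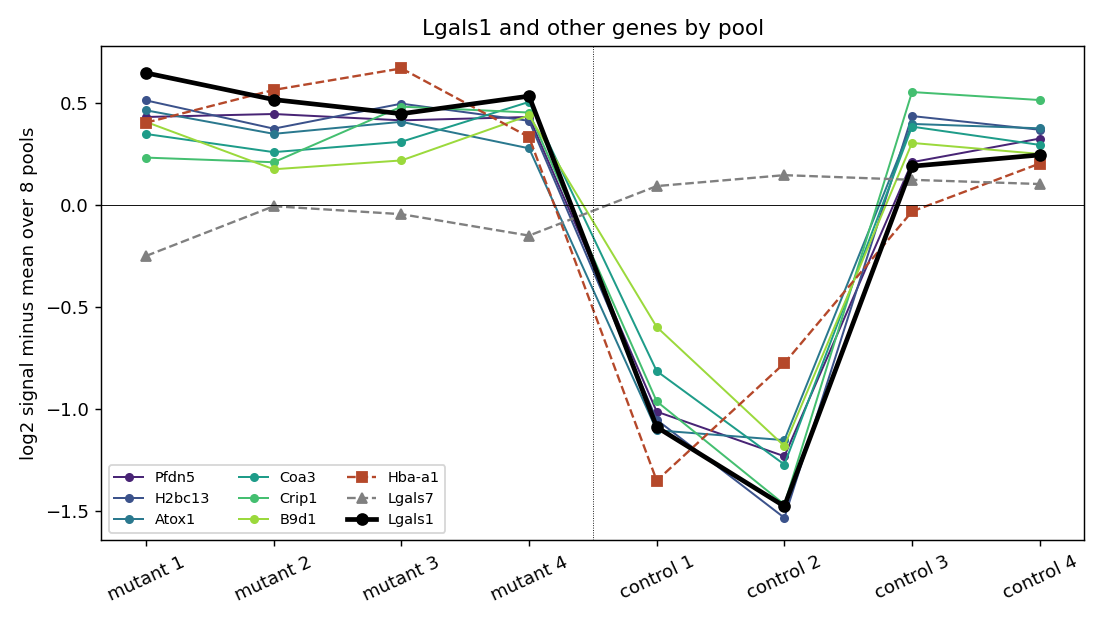
Log2 signal of Lgals1 (thick black line), the 6 genes with a symbol and the most similar profile (solid lines), Hba-a1 and Lgals7 (dashed lines) in each pool, centred on the gene's mean over the 8 pools, with mutants left of controls. Lines join the points of a gene to guide the eye, since pools have no order. All genes but Lgals7 drop in control pools 1 and 2, while control pools 3 and 4 lie near the mutants.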

How the data were processed

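RNA of each pool was amplified, labelled with digoxigenin and hybridised to a one-colour Applied Biosystems array, per the labels' protocols. Per the file headers, the deposited columns are a signal, which is a linear intensity, a signal-to-noise score, a quality flag (another kind of value, whose meaning is not given) and an array-normalized signal. The whole-series table equals the deposited array-normalized signal in 264096 of 264096 cells (tolerance 0.005). The sources used here give neither reader software nor background correction. No signal was negative, and no background was subtracted here for the main values.

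Log2 signals were quantile normalized over 33012 probes in R 4.3.3 with limma 3.58.1. Probes with signal-to-noise of at least 3 and a flag under 5000 in at least 3 of 4 pools of a group were tested two-sided in limma (lmFit, eBayes), and p-values were adjusted over 17594 probes by Benjamini-Hochberg, with 0.05 as threshold. Symbols came from RefSeq (GRCm38.p6) by accession or exact synonym, for 316 probes. The labels do not tell litters apart, so the spread behind a p-value is that between pools and may be partly technical. The number of arrays limits the precision.

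Lgals1, the gene lists and the alternatives were chosen with earlier results of these data known. The text names Lgals1, matched list members, and the 6 nearest and 2 nearest sign-turned profiles. Genomic neighbours, the scalings against control pools 3 and 4 alone and mCG1042503.1 were added after the data had been seen. Alternatives changed scaling, value column, background, filter, variance model, array weights, date or replicate block, and the pools used.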

Additional observations from a re-analysis of the deposited data

How the results depend on the processing

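The Lgals1 difference was 1.07, and groups overlapped in 1 of 23 alternatives, without scaling (0.65). The difference stayed positive in all 23, as those reusing the reported pool values had to. It moved by more than the pooled SD of 0.63 in 3 of them, to 0.32 against control pools 3 and 4 alone, 1.82 against control pools 1 and 2 alone, and 2.12 within the date with 1 pool of each genotype. Against control pools 3 and 4 alone, a choice made after seeing the data, it was 0.21 with 75th percentile scaling, 0.17 with the array-normalized signal and -0.13 without scaling. Over all pools it was 0.52 with array weights (0.305 for control pool 1 and 0.161 for control pool 2). Leaving out 1 pool gave 0.75 (without control pool 2) to 1.33 (without control pool 4). Replicate numbers match between genotypes, but no label says that they pair pools, so pools were not paired. Deviations of same-numbered pools correlated at -0.09 to 0.18 across probes. This cannot decide pairing, because the control deviations carry the split of control pools 1 and 2. The replicate block gave 1.07 for Lgals1 and 30 called probes.

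Over all probes the count of 81 called became 48 without scaling, 30 within the date with 3 pools of each genotype, 36 with mutant pools 1 and 4, which may be 1 pool, averaged, 4566 without control pools 3 and 4, 30 without a filter, 285 with array weights, and 38 to 65 with 1 pool left out. With Lgals1 left out of the count, as a gene chosen on this contrast, no galectin list gene was called under any alternative. Lgals7 was the only one tested except where no filter was used. Hba-a1 passed without control pools 3 and 4 (1.56, limma's adjusted p = 0.00308), which made 1 marker called. Cdc42ep1 (-0.49) and Pdxp (-0.54) passed there too. That fit carries the deviation control pools 1 and 2 share. Gga1, at 0.07 with all pools, turned to -0.032 with median scaling, -0.34 without scaling, -0.035 with the array-normalized signal, -0.083 within the date with 3 pools of each genotype, -0.17 without control pools 1 and 2, and -0.082 with array weights. With 1 pool left out it ran from -0.061 (control pool 2) to 0.23 (control pool 4). Nol12, at 0.11 with all pools, turned to -0.19 without scaling, -0.16 against control pools 3 and 4 alone, and -0.092 with array weights. With 1 pool left out it ran from -0.0052 (control pool 2) to 0.26 (control pool 4). Of the 6 genes with the most similar profile, 1 was among the nearest 6 without control pools 1 and 2. The causes of these shifts were not tested.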

Other observations

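The 32 groups of 4 pools checked were 2 for each of the 16 genes named here with a symbol. None held a pool far from the other 3 by Dixon's criterion, which chance exceeds in about 5% of groups. The criterion looks for a single pool apart, so it cannot flag controls that split 2 against 2, as for Lgals1. The genes with the nearest profiles were picked for likeness to Lgals1, so nothing about the controls is read from this result.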
